A study of Mus musculus with 8 samples.

Results

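Principal cells line the collecting duct of the kidney and set the final amount of water and sodium lost in the urine. The 10 genes described here carry out or control that work, and they were taken from the count tables by gene symbol, as 10 of 24063 genes measured in all 8 libraries. They were Avpr2, Aqp2, Aqp3 and Aqp4 for water, and Scnn1a, Scnn1b, Scnn1g, Fxyd4, Kcnj1 and Hsd11b2 for sodium and potassium. The cultures were tubuloids, hollow tubules and spheroids that grow in Matrigel from primary mouse kidney fragments. The study also describes undifferentiated globular structures among them. Its general culture methods start with a pulse of glial-derived neurotrophic factor (GDNF), in a medium that holds hepatocyte, epidermal and fibroblast growth factors throughout. The labels give the kidneys as postnatal day 7 to 10. The study's methods give a younger range, so the age is uncertain. All 8 libraries, controls included, carried the genotype Pkd2fl/fl Pax8rtTA TetOCre mTmG: floxed Pkd2, a tetracycline transactivator driven by the Pax8 promoter of kidney epithelium, a Cre that this transactivator switches on, and a membrane reporter of recombination. Doxycycline (DOX) for 3 days from day 3 of culture induced Cre in 4 libraries, and the vehicle dimethyl sulfoxide (DMSO) was given in the same way to 4 libraries, with RNA taken on day 7. Cells without Pax8 keep Pkd2 in this model. Each library is named here by its group and the number in its title, and the labels do not say whether the libraries came from separate animals, so p-values measure the spread between these libraries only.

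Water is taken up when vasopressin binds its receptor on the basolateral side of the principal cell, encoded by Avpr2. The receptor raises cyclic AMP, protein kinase A then sends vesicles with the water channel aquaporin-2 (Aqp2) to the apical membrane, and water leaves the cell through aquaporin-3 and aquaporin-4. Sodium enters through the epithelial sodium channel (ENaC), which is assembled from the subunits encoded by Scnn1a, Scnn1b and Scnn1g, and is pumped out by the sodium pump. Aldosterone raises this transport through the mineralocorticoid receptor, and Hsd11b2 inactivates the glucocorticoids that would otherwise occupy that receptor. Polycystic kidney disease from loss of Pkd2 often begins in these tubules, and cyclic AMP from this receptor is a known driver of cyst growth.

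The genomic sequence before the start of 1 RefSeq transcript is shown for 5 members whose levels the results turn on: the receptor and the water channel it controls, both ENaC subunits whose levels varied together, and Fxyd4, the member counted in every library. Each line gives 250 bases on GRCm38.p6, the assembly that mm10 names, 5′ to 3′ on the strand of the gene. Capitals mark matches to 3 motifs searched on both strands. The GATA motif is spelled GATAA and is bound by GATA factors such as Gata3. The cyclic AMP motif is spelled TGACG and is part of the site of Creb1. The steroid motif is spelled AGAACA and is part of the site of the mineralocorticoid and glucocorticoid receptors.
Avpr2: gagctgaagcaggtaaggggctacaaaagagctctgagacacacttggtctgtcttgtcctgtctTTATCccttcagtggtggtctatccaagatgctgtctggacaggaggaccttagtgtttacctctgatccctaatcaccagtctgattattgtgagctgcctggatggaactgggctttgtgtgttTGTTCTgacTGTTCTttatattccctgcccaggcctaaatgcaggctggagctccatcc
Aqp2: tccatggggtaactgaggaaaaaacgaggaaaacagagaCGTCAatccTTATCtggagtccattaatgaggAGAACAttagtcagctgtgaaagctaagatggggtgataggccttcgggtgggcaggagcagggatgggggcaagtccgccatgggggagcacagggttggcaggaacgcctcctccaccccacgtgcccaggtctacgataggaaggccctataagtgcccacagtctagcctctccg
Scnn1b: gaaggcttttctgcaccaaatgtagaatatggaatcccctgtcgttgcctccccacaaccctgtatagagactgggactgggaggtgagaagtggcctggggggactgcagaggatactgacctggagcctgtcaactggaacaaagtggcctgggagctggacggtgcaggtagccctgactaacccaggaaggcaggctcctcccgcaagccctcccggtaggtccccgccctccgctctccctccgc
Scnn1g: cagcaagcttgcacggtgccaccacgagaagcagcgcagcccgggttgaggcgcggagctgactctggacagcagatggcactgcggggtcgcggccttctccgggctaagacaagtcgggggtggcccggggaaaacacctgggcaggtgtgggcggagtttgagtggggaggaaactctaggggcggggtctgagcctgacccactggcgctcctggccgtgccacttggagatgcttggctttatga
Fxyd4: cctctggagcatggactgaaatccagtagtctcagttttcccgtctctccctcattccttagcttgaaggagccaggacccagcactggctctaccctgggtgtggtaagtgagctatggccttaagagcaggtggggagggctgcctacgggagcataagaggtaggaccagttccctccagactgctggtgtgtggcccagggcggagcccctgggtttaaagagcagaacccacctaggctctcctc
The windows lie at chrX:73891852-73892101 (plus strand) for Avpr2, chr15:99578806-99579055 (plus) for Aqp2, chr7:121864788-121865037 (plus) for Scnn1b, chr7:121734229-121734478 (plus) for Scnn1g and chr6:117937336-117937585 (minus) for Fxyd4. The genes as annotated begin further upstream for Avpr2, Scnn1g and Fxyd4, so the Avpr2 and Fxyd4 windows lie inside the annotated gene and the Scnn1g window overlaps it. In the Aqp2 window the cyclic AMP, GATA and steroid motifs each matched at 1 place, with first bases 211, 202 and 179 bases before the start, and no matches overlapped. The Avpr2 window held the GATA motif 185 bases and the steroid motif 59 and 50 bases before the start. No motif was found in the Scnn1b, Scnn1g and Fxyd4 windows. Among all 32851 windows of this length, 22.6% held the GATA motif, 17.8% the cyclic AMP motif and 16.1% the steroid motif. A window was at hand for 7 of the 10 members, and in the remaining pair the Kcnj1 window held all 3 motifs while the Aqp3 window held none.

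Total counts ranged from 63922677 to 102716313 per library when transcripts were summed by symbol. DMSO 20 and DOX 19 stood apart, with 13243 and 13599 genes counted against 17054 to 17903 in the other 6 libraries, so the fold changes of the members, their mean levels and the counts by direction are also given without them. Reads were counted for each isoform of a gene, which raises the sums of Avpr2 (3 transcripts), Scnn1b (3), Fxyd4 (2) and Kcnj1 (2). Levels are given as TPM, a count scaled by transcript length and by the library's sum, which allows genes to be compared. Pkd2, the targeted gene, was at 24.4, 37.1, 25.0 and 24.9 TPM in DMSO 15, 20, 3 and 5 and at 19.0, 21.3, 26.7 and 28.2 TPM in DOX 9, 21, 19 and 12. The groups overlapped, and the Pkd2 difference did not pass the test (log2 fold change -0.31, SE 0.21, DESeq2 adjusted p = 0.999). A deletion of part of the gene was therefore not visible in the summed count. By western blot the paper reports significantly less of the Pkd2 protein in tubuloids after doxycycline. Some protein was still detected, and cells with the unrecombined reporter colour remained in differentiated structures.

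Fxyd4 was the most abundant member and Aqp2 was practically absent. Over all 8 libraries, the mean TPM of Fxyd4 was 65.5 ± 100 (SD, n = 8), followed by Scnn1b at 17.6 ± 29.2, Avpr2 at 9.48 ± 15.0, Kcnj1 at 3.63 ± 5.37, Scnn1g at 2.39 ± 4.54, Hsd11b2 at 1.79 ± 1.87, Scnn1a at 0.989 ± 0.774, Aqp3 at 0.706 ± 0.617, Aqp4 at 0.141 ± 0.224 and Aqp2 at 0.00359 ± 0.0102. Within libraries, Fxyd4 was higher than Scnn1b in 8 of 8, and Avpr2 was higher than Kcnj1 in 6 with 0 the other way. Scnn1b was higher than Avpr2 in 6 libraries and lower in 1, with a mean log2 ratio of 0.78 ± 0.38 (SD) over the 5 libraries that counted both. Aqp3 exceeded Aqp4 in 5 libraries and lay below it in 1, with a mean log2 ratio of 2.96 ± 1.72 (SD) over 6 libraries, and Kcnj1 exceeded Scnn1g in 5 and lay below it in 1, with 1.38 ± 0.97 over 5. Other neighbours were not separated beyond their spread: Scnn1g exceeded Hsd11b2 in 2 libraries and lay below it in 4, Hsd11b2 exceeded Scnn1a in 5 and lay below it in 2 (mean log2 ratio 1.29 ± 1.32), and Scnn1a exceeded Aqp3 in 4 and lay below it in 3. With a single transcript per gene, Fxyd4 averaged 32.7, Scnn1b 5.67, Avpr2 2.89, Scnn1g 2.39 and Kcnj1 1.82 TPM, so Scnn1g and Kcnj1 changed places, with Scnn1g above Kcnj1 in 3 libraries and below it in 3. Without DMSO 20 and DOX 19 the summed means were 83.4 TPM for Fxyd4, 23.5 for Scnn1b, 12.6 for Avpr2, 4.84 for Kcnj1 and 3.19 for Scnn1g. Those of Hsd11b2, Scnn1a, Aqp3 and Aqp4 were 2.39, 1.01, 0.942 and 0.187 TPM, in the same order as over all 8. DMSO 5 was the highest library for 7 members and raised their means. By median over the 8 libraries, Fxyd4 (26.4 TPM), Scnn1b (4.19) and Avpr2 (2.53) stayed on top. Then came Hsd11b2 (1.40), Scnn1a (0.909), Kcnj1 (0.896), Aqp3 (0.728) and Scnn1g (0.367), so Kcnj1 and Scnn1g stood lower than by mean.

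**Figure D1:**
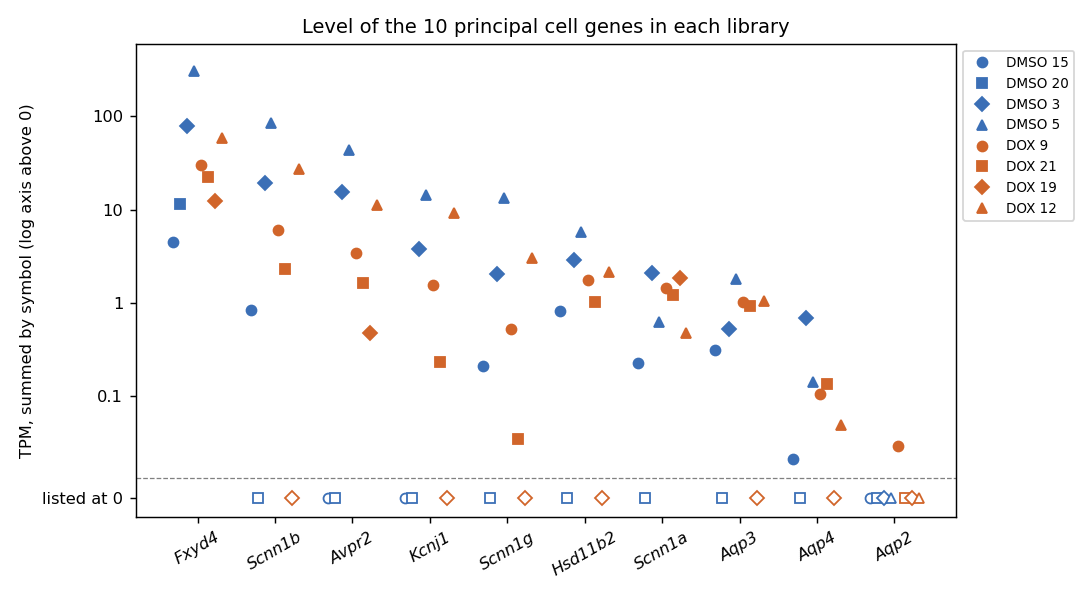
TPM of each of the 10 genes (horizontal axis, ordered by mean level) in each of the 8 libraries, on a log axis with open symbols for genes listed at 0. Fxyd4 is above 0 in every library, and DMSO 20 (blue squares) is at 0 for the other 9 genes.

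The receptor was present while the channel it acts on was not. Avpr2 (chrX:73891765-73894428) was listed at 0 in DMSO 15 and DMSO 20, and stood at 15.4 and 43.7 TPM in DMSO 3 and DMSO 5. In DOX 9, 21, 19 and 12 it was at 3.44, 1.62, 0.470 and 11.2 TPM. The DOX libraries thus lay between the low and the high pair of DMSO libraries, and the groups overlapped. The fitted log2 fold change was -1.92 (SE 1.93, 95% interval -5.70 to 1.86, DESeq2 adjusted p = 0.999) and, without DMSO 20 and DOX 19, -1.94. Without DMSO 5 it was -0.64. The mean log2 value of the same counts pointed the other way (1.82 higher with DOX, exact two-sided permutation p = 0.543), with 2 of the 4 DMSO libraries at 0. That difference was 0.04 without DMSO 15 or without DMSO 20, 3.41 without DMSO 3, 3.80 without DMSO 5, 1.14 without DOX 12 and 0.77 without DMSO 20 and DOX 19. Avpr2 overlaps Arhgap4 on the X chromosome, and the counting was not stated to use strand, so reads of both genes may be mixed. Arhgap4 had 1059 counts in DMSO 20, where Avpr2 had 0, and 1668 counts in DOX 19, where Avpr2 had 27, so in those 2 libraries a high Arhgap4 count stood beside a low Avpr2 count.

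Aqp2 (chr15:99579056-99584545), the vasopressin-regulated apical channel, had 2 counts in DOX 9 and 0 counts in the other 7 libraries. A count of 0 allows up to 3 counts, which would be 0.0419 to 0.0695 TPM in these libraries, so no Aqp2 message was detectable above that level and no fold change is given. Such limits cover counting error only.

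Aqp3, a basolateral water and glycerol channel, was at 0.312, 0, 0.528 and 1.81 TPM in DMSO 15, 20, 3 and 5 and at 1.03, 0.929, 0 and 1.05 TPM in DOX 9, 21, 19 and 12. Apart from the 2 libraries at 0, the 3 DOX values lay inside the DMSO range. The log2 fold change was 0.15 (SE 1.67, 95% interval -3.14 to 3.43, DESeq2 adjusted p = 0.999), and its sign changed when DMSO 15, DMSO 20, DOX 9 or DOX 21 was left out. Without DMSO 20 and DOX 19 together it was 0.18. Aqp4, the other basolateral water channel, was at 0.0208, 0, 0.678 and 0.139 TPM in the DMSO libraries and at 0.104, 0.134, 0 and 0.0486 TPM in the DOX libraries. Its highest value, in DMSO 3, rested on 174 counts, and every other library had at most 27. The log2 fold change of Aqp4 was -1.71 (SE 1.84, 95% interval -5.31 to 1.88, DESeq2 adjusted p = 0.999) and turned to 0.50 without DMSO 3. Without DMSO 20 and DOX 19 it was -1.68.

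The ENaC subunits did not keep a fixed ratio. Scnn1b (chr7:121865038-121918728) was at 0.832, 0, 19.2 and 85.3 TPM in DMSO 15, 20, 3 and 5 and at 6.07, 2.32, 0 and 27.4 TPM in DOX 9, 21, 19 and 12. Scnn1g (chr7:121734420-121768482) was at 0.207, 0, 2.01 and 13.3 TPM in DMSO and at 0.528, 0.0340, 0 and 3.05 TPM in DOX. Both were highest in DMSO 5, then DOX 12, then DMSO 3. Scnn1a (chr6:125314271-125344943), the pore subunit that ENaC assembly requires, was at 0.223, 0, 2.11 and 0.622 TPM in DMSO and at 1.44, 1.20, 1.84 and 0.476 TPM in DOX. Its order was different, with DMSO 3 and DOX 19 on top, and DOX 19 held 244 Scnn1a counts with 0 counts of Scnn1b and Scnn1g.

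**Figure D2:**
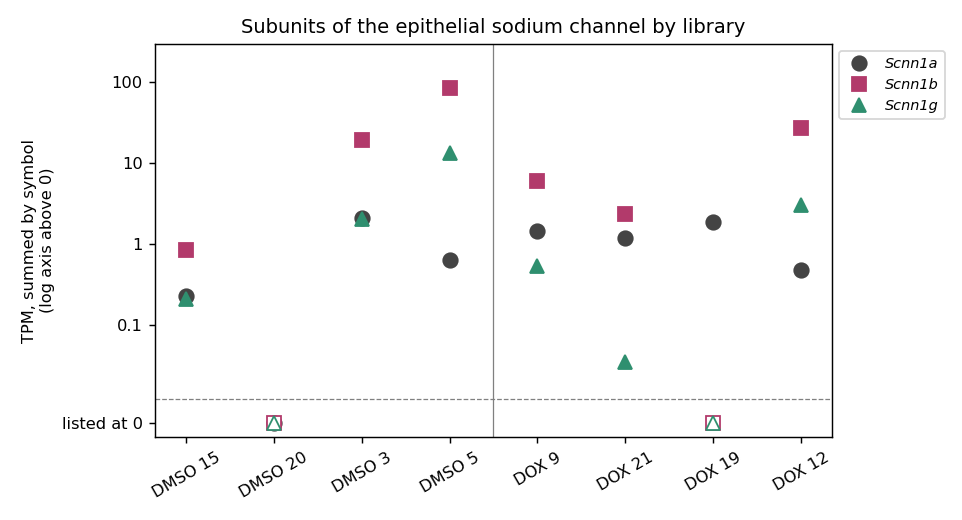
TPM of Scnn1a, Scnn1b and Scnn1g (symbols) in each library (horizontal axis, DMSO left and DOX right of the vertical line), on a log axis with open symbols for genes listed at 0. In DOX 19 only Scnn1a is above 0, and in DMSO 5 Scnn1a is the lowest of the 3 subunits.

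DOX and DMSO did not differ in any subunit or ratio beyond the spread of the libraries. The log2 fold changes were -1.66 for Scnn1b (SE 2.46, 95% interval -6.49 to 3.17), -2.21 for Scnn1g (SE 2.00, -6.14 to 1.71) and 0.63 for Scnn1a (SE 1.30, -1.92 to 3.17), each with a DESeq2 adjusted p of 0.999. Without DMSO 20 and DOX 19 they were -1.64, -2.19 and -0.04, so the sign of Scnn1a turned. Without DMSO 5, Scnn1b turned to 0.05 and Scnn1g came to -0.11, and without DOX 12 Scnn1g came to -4.25. The ratio of Scnn1b to Scnn1a, defined in the 6 libraries that counted all subunits, ranged from 1.94 in DOX 21 to 137 in DMSO 5. The ratio of Scnn1g to Scnn1a ranged from 0.0284 to 21.4 in the same libraries, and that of Scnn1b to Scnn1g from 4.03 in DMSO 15 to 68.1 in DOX 21, where Scnn1g rested on 4 counts. With 1 transcript of Scnn1b the first ratio ranged from 0.622 to 44.1 and the last from 1.29 to 21.9. DOX minus DMSO on the log2 scale was -1.10 for Scnn1b to Scnn1a (exact permutation p = 0.6), -2.71 for Scnn1g to Scnn1a (exact permutation p = 0.4) and 1.61 for Scnn1b to Scnn1g (exact permutation p = 0.2), all with an adjusted p of 0.6 over the 3 ratios. With 3 libraries against 3 the smallest possible p was 0.1, so none of these ratios could have passed, and the first turned to 0.42 without DMSO 5. Without DOX 21 the second came to -0.80 and the third to 0.70, without DOX 12 the second came to -4.70, and without DMSO 5 it came to -1.21.

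Scnn1b and Scnn1g varied together across libraries. DMSO 20 and DOX 19 were at 0 for both and formed a group of their own, so the relation was taken over the other 6 libraries. There, on log2(normalised count + 1), Pearson's r was 0.898 (exact permutation p = 0.0125, adjusted p = 0.0375 over 3 pairs) and Spearman's rho was 0.943 (exact permutation p = 0.0167, adjusted p = 0.05). The pairs with Scnn1a gave r = 0.187 for Scnn1b (exact permutation p = 0.711, rho 0.143) and r = -0.08 for Scnn1g (exact permutation p = 0.878, rho -0.03) in the same 6 libraries. Kcnj1, on another chromosome, had the same order of these 6 libraries in TPM as Scnn1b (DMSO 5, DOX 12, DMSO 3, DOX 9, DOX 21 and DMSO 15). All libraries share the same isoform counting.

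Fxyd4 (chr6:117933558-117937714) encodes a small regulator of the sodium pump that is made in the collecting duct. It was at 4.44, 11.5, 78.6 and 306 TPM in DMSO 15, 20, 3 and 5 and at 30.3, 22.5, 12.3 and 58.4 TPM in DOX 9, 21, 19 and 12. The DMSO libraries held both the lowest and the highest values, and all 4 DOX libraries lay between them. With 116 to 6214 counts it was the only member counted in every library. The log2 fold change was -1.72 (SE 1.03, 95% interval -3.73 to 0.29, DESeq2 adjusted p = 0.999), and its unadjusted p was the smallest of the members in DESeq2 and in edgeR. Without DMSO 20 and DOX 19 it was -1.81 (DESeq2 adjusted p = 0.769), and without DMSO 5 it was -0.29. Without DMSO 5 the mean log2 difference turned from -0.41 to 0.59. Without DMSO 3 that difference was 0.05.

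In bulk RNA, fewer cells of a type and less RNA per cell cannot be told apart. Fxyd4 was therefore also set against the summed TPM of the epithelial genes Cdh1, Epcam, Pax8 and Krt19, a scale chosen after seeing the data. It came to 1.49% of that sum in DMSO 15, 1.65% in DMSO 20, 5.78% in DMSO 3 and 25.4% in DMSO 5, and to 3.58% in DOX 9, 5.48% in DOX 21, 2.22% in DOX 19 and 11.2% in DOX 12. The spread from lowest to highest library was 17.1-fold on this scale and 69.0-fold in TPM. DOX exceeded DMSO by 0.11 on the log2 scale (exact two-sided permutation p = 0.943), and the groups overlapped.

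**Figure D3:**
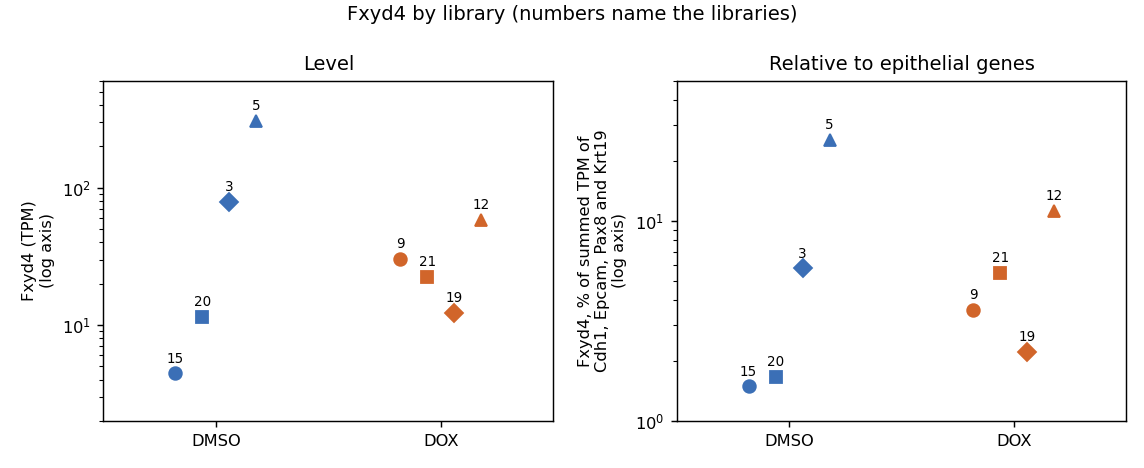
Fxyd4 by group in TPM (left) and as a percentage of the summed TPM of Cdh1, Epcam, Pax8 and Krt19 (right), both on log axes, with 1 point per library named by its number. DMSO 5 is the highest and DMSO 15 the lowest library on both scales, with the 4 DOX libraries between them.

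Kcnj1 and Hsd11b2 followed the same libraries. Kcnj1, the ROMK channel that returns potassium to the urine and is also used by the loop of Henle, was listed at 0 in DMSO 15 and DMSO 20 and was at 3.76 and 14.4 TPM in DMSO 3 and DMSO 5. In DOX 9, 21, 19 and 12 it was at 1.56, 0.230, 0 and 9.08 TPM. The log2 fold change was -0.87 (SE 2.95, 95% interval -6.65 to 4.91, DESeq2 adjusted p = 0.999), the widest interval of the members tested. Without DMSO 5 it was 0.72, and without DMSO 20 and DOX 19 it was -0.85. The mean log2 value was 0.68 higher with DOX (exact permutation p = 0.914), so both summaries differed in sign. Hsd11b2, the enzyme that guards the mineralocorticoid receptor, was at 0.823, 0, 2.87 and 5.71 TPM in DMSO and at 1.77, 1.02, 0 and 2.15 TPM in DOX. Its log2 fold change was -1.01 (SE 1.70, 95% interval -4.35 to 2.32, DESeq2 adjusted p = 0.999) and -0.98 without DMSO 20 and DOX 19. Without DMSO 5 it was -0.28.

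A gene counted as called when it changed by 1.5-fold or more with an adjusted p not above 0.05. Of the 9 members with an adjusted p, 0 were called by DESeq2 or by edgeR, and 0 reached an unadjusted p under 0.05 in either tool. Over all genes DESeq2 called 25 of 17011 (0.147%), 4.67% were at an unadjusted p under 0.05, and edgeR called 0 of 15562 (0.0%), with 476 at an unadjusted p under 0.05. The fitted value was lower with DOX in 7 of the 9 members and higher in 2, against 55.5% lower over all genes, and their median log2 fold change was -1.66 against -0.07. Without DMSO 5, 5 members were lower and 4 higher, with a median of -0.11, and limma-voom gave the same split with a median of -0.43. Without DMSO 20 and DOX 19, 8 were lower and 1 higher, with a median of -1.64. The same split was found without DMSO 15, DMSO 20, DOX 9 or DOX 21 alone. The split was 6 lower and 3 higher without DMSO 3 (median -0.87) and with sex as a covariate (median -1.09). The mean log2 differences over all 8 libraries gave 5 lower and 4 higher, with a median of -0.41. That median turned to 0.71 without DMSO 3 (1 lower, 8 higher), to 1.18 without DMSO 5 (2 lower, 7 higher) and to 1.83 without DOX 19 (2 lower, 7 higher). It moved the other way without DMSO 20, to -1.11 (7 lower, 2 higher), without DMSO 15, to -0.87 (6 lower, 3 higher), and without DOX 12, to -0.72 (7 lower, 2 higher). Groups did not overlap in 0 of the members and in 2.71% of all genes. Exact permutation p-values of the members ran from 0.314 to 0.914, where the smallest possible was 0.0286. The members were measured with wide errors: their median SE was 1.84 on the log2 scale, against 0.588 over all genes, so changes of the size fitted here were not separable from 0.

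**Figure D4:**
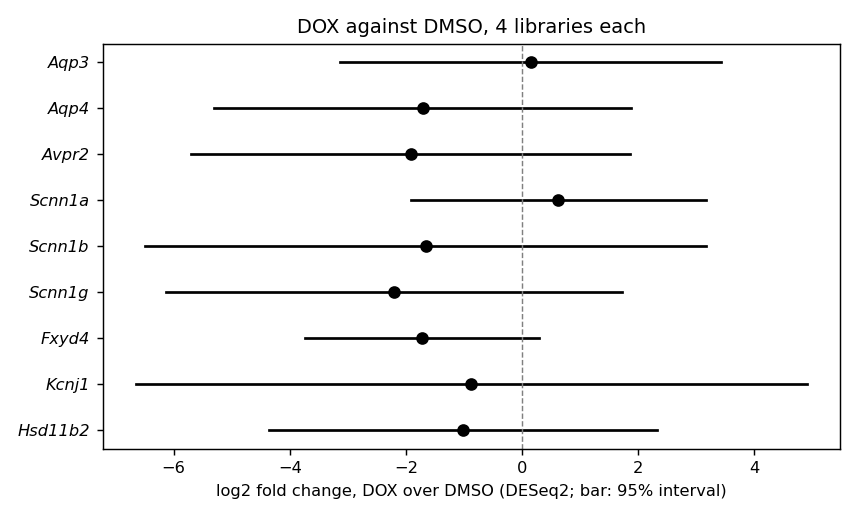
Log2 fold change of DOX over DMSO (horizontal axis) with its 95% interval (bars) for the 9 members that could be tested, from DESeq2 with 4 libraries per group. All 9 intervals include 0, and that of Fxyd4 (-3.73 to 0.29) is the narrowest.

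The members varied more between libraries than most genes did. On log2(normalised count + 1), the SD over the 8 libraries was 1.83 for Fxyd4 and up to 5.03 for Scnn1b, leaving out Aqp2, against a median of 0.733 over 17633 genes. DMSO 20 was at 0 for 9 of the 10 members and DOX 19 for 7. Besides Aqp2, 6 of 9 members were at 0 in both, a pattern that 18.0% of all genes showed. DMSO 5 was the highest library for 7 members, and for 16.7% of all genes. These 2 counts were chosen after the values were seen. DMSO 15, which counted 17054 genes in all, was also at 0 for Aqp2, Avpr2 and Kcnj1. A count of 0 allows up to 3 counts, which would be 0.0156 to 0.0695 TPM in the 23 cases concerned.

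The ureteric and general epithelial markers were counted in the libraries where most members were at 0, unlike many markers of single tubule segments. In DMSO 20 and DOX 19, Gata3, a transcription factor of the collecting duct, was at 19.2 and 29.2 TPM within a range of 7.70 to 40.0 over all libraries. Wnt11, a ureteric tip gene, was at 46.3 and 64.4 TPM, and Epcam, an adhesion molecule of epithelia, was at 123 and 103 TPM. Tfcp2l1, a collecting duct transcription factor, was at 3.01 and 2.52 TPM within a range of 0.656 to 16.1, and Ret, the GDNF receptor, was at 7.23 TPM in DMSO 20 and at its lowest of all libraries, 0.691 TPM, in DOX 19. Elf5, a transcription factor of principal cells, was at 0 in both and at 0.116 to 2.04 TPM in the other 6 libraries. The 7 ureteric and collecting duct markers (Gata3, Hoxb7, Tfcp2l1, Ret, Wnt11, Krt8 and Krt18) summed to 397 to 1357 TPM in DMSO and 456 to 879 TPM in DOX, most of it the general epithelial keratins Krt8 and Krt18, and the 4 epithelial markers to 298 to 1358 and 411 to 846 TPM. Of the principal cell genes, Fxyd4 was thus counted in all 8 libraries, Scnn1b in 6 and Avpr2 in 6, the latter at only 0.470 TPM in DOX 19. Aqp2, the defining gene of the mature cell, was practically absent. The paper, writing of its GDNF experiment, reports that mature collecting duct markers appeared to be lacking, and it names Fxyd4, Aqp2 and Avpr2 as examples. A count above 0 here marks detection and gives no verdict on cell identity.

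**Figure D5:**
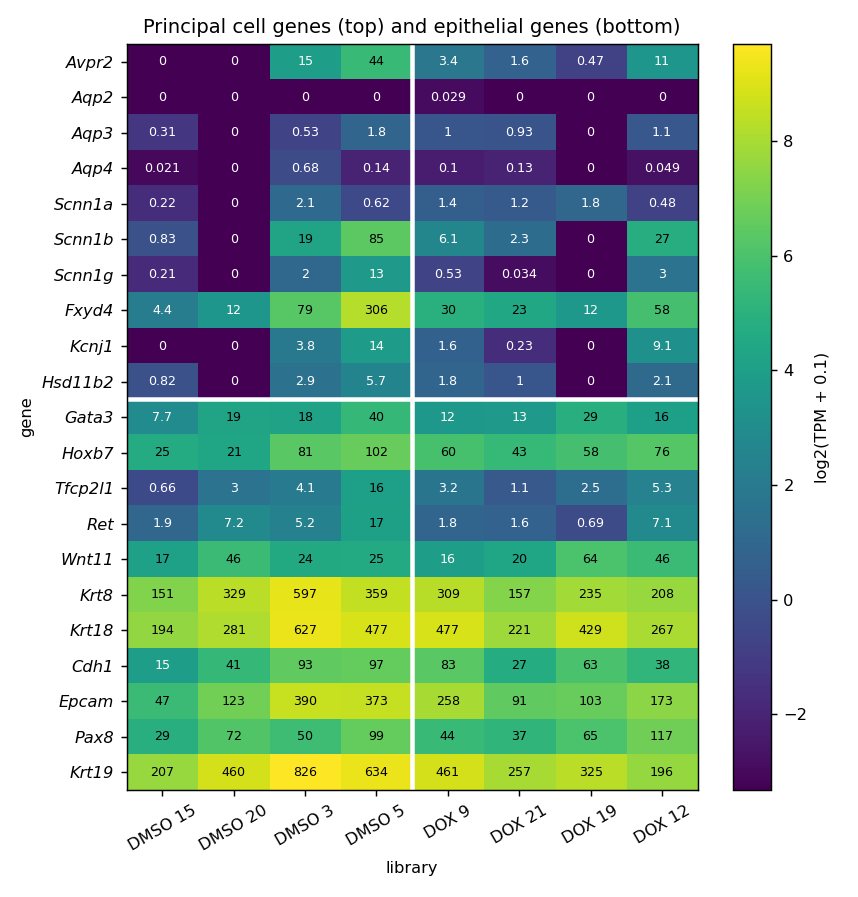
TPM of the 10 members (upper rows) and of 11 ureteric and epithelial genes (lower rows) in the 8 libraries (columns), printed in each cell and coloured by log2(TPM + 0.1). In DMSO 20 and DOX 19 most upper cells read 0 while every lower cell is above 0, the lowest being Ret at 0.691 TPM in DOX 19 and Tfcp2l1 at 3.01 TPM in DMSO 20.

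The sums of loop of Henle, distal tubule and intercalated cell markers were low in DMSO 20 and high in DMSO 5, as most members were. The loop sum was highest in DOX 12, and genes within each list differed in their order of libraries. The 4 loop of Henle markers (Umod, Slc12a1, Cldn16 and Cldn10) summed to 0 TPM in DMSO 20 and in DOX 19 and to 21.3 to 181 TPM elsewhere, most of it Cldn10. The 6 distal tubule markers were Slc12a3, Pvalb, Trpm6, Calb1, Trpv5 and Slc8a1. They summed to 0.861 TPM in DMSO 20 and 75.3 TPM in DMSO 5, with Pvalb at or near 0 in all libraries. Most of the DMSO 5 sum was Calb1 at 68.1 TPM, and Slc8a1 was also highest there at 6.07 TPM. Slc12a3, Trpm6 and Trpv5 were highest in DMSO 3, at 0.588, 1.62 and 0.198 TPM. In DMSO 5 they were at 0, 0.953 and 0.167 TPM. The 8 intercalated cell markers summed to 0 TPM in DMSO 20 and 12.7 TPM in DMSO 5, with 1.12 to 8.43 TPM in DOX. Atp6v0d2 was the largest part in every library above 0, and it was highest in DMSO 3 at 9.79 TPM, against 6.04 TPM in DMSO 5. Slc4a1 was above 0 in DOX 19 alone. Atp6v1b1, Atp6v1g3, Slc26a4, Foxi1, Slc4a9 and Aqp6 were highest in DMSO 5, with Slc4a9 at 3.62 TPM and the others at no more than 1.19 TPM. The 7 stromal markers ran the other way between DMSO 15 and DMSO 5. They summed to 2615 TPM in DMSO 15, where the members were low, and to 260 TPM in DMSO 5, where the members were high. That order did not hold elsewhere: the sum was 753 TPM in DMSO 20, where most members were at 0, and 921 TPM in DMSO 3. In DOX it was 490 to 836 TPM, lowest in DOX 19. Pdgfra alone went against this pair, with 12.2 TPM in DMSO 15 and 20.8 TPM in DMSO 5. The 9 proximal tubule markers summed to 6.65 to 23.7 TPM, most of it Slc5a2, a glucose transporter, which was highest in DMSO 20 at 23.7 TPM, while Lrp2, Cubn and Slc34a1 were at 0.174 TPM or less. Other lists had another order: the 4 podocyte markers were highest in DOX 21 at 191 TPM, the 4 endothelial markers in DOX 21 at 161 TPM, and the 6 urothelial markers in DOX 19 at 39.4 TPM. Of the endothelial sum 160.0 TPM was Emcn, with Pecam1, Cdh5 and Kdr at 0.508, 0.0569 and 0.254 TPM. The urothelial sum in DOX 19 was Krt20 and Krt5, with the uroplakins Upk1a, Upk1b, Upk2 and Upk3a at 0. The 3 macrophage markers measured (Ptprc, Csf1r and Cd68) summed highest in DMSO 5 at 28.7 TPM, with 26.0 TPM in DMSO 20 and 0.0068 TPM in DOX 19. Different genes made these sums: Ptprc was at 22.3 TPM in DMSO 5, and Cd68 was at 23.3 TPM in DMSO 20. Csf1r was at 0.0913 TPM in DMSO 5 and at 0 in DMSO 20. The part of these cells in the differences between libraries was not tested.

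The genes around these transporters were counted in nearly all libraries. The lists of vasopressin signalling and vesicle traffic (20 genes), aldosterone response (15), ENaC-cleaving proteases and their inhibitors (8), and pump, potassium and chloride transport (10) held 53 genes. Of these, 46 were counted in every library, 50 had an adjusted p and 0 were called by DESeq2 or edgeR, against 0.147% and 0.0% of all genes. In the DESeq2 fit 18 were higher and 35 lower with DOX, with a median log2 fold change of -0.22, against 55.5% lower and a median of -0.07 over all genes. Without DMSO 5, 27 were lower and 26 higher, with a median of -0.04, and without DMSO 20 and DOX 19, 34 were lower and 19 higher, with a median of -0.17. With limma-voom, 26 of 49 were lower and 23 higher, with a median of -0.01. Of the pathway genes 1 was at an unadjusted p under 0.05, against 4.67% of all genes.

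Creb1, the cyclic AMP factor, was that gene: it was at 34.5 ± 15.1 TPM in DMSO and 22.2 ± 4.57 TPM in DOX (SD, n = 4 each). On the log2 scale Creb1 differed by -0.71 with DOX (SE 0.33), and DESeq2 gave an adjusted p of 0.862. DMSO 20 was its highest library at 57.1 TPM, and without DMSO 20 and DOX 19 the log2 fold change was -0.29. Downstream of the receptor, Gnas, the stimulatory G protein, averaged 4486 TPM, and the protein kinase A subunits Prkar1a, Prkacb and Prkaca averaged 359, 239 and 102 TPM, while the cyclase Adcy6 was at 3.46 TPM. Isoform counting raised several of these sums: with a single transcript per gene, Gnas averaged 822 TPM, Prkacb 59.2 TPM and Prkaca 50.9 TPM, and Prkar1a and Adcy6 stayed as they were. Rab11a, which recycles aquaporin vesicles, was at 278 ± 83.3 TPM in DMSO and 202 ± 26.9 TPM in DOX (log2 fold change -0.52, DESeq2 adjusted p = 0.986). Hspa8, which helps take up aquaporin-2 from the membrane, averaged 698 TPM.

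Of the aldosterone response, the mineralocorticoid receptor Nr3c2 averaged 1.40 ± 0.876 TPM and the glucocorticoid receptor Nr3c1 13.7 ± 5.03 TPM (SD, n = 8). Sgk1, the kinase that keeps ENaC at the membrane, averaged 425 ± 243 TPM (75.3 with a single transcript), and Nedd4l, the ligase that removes ENaC, 13.3 ± 8.71 TPM (6.80 with a single transcript). Tsc22d3, a steroid-induced gene, was at 97.8 ± 17.3 TPM in DMSO and 102 ± 36.7 TPM in DOX. Klhl3, an adaptor that degrades WNK kinases, had the smallest p of this list (log2 fold change -1.32, SE 0.78, DESeq2 adjusted p = 0.999). Among proteases, Furin, which cleaves ENaC on its way to the surface, ranged from 66.5 to 109 TPM, while Prss8, the channel-activating protease prostasin, ranged from 2.39 to 25.9 TPM. The inhibitor Serpine2 was at 448 ± 220 TPM in DMSO and 822 ± 358 TPM in DOX (log2 fold change 0.82, SE 0.47, DESeq2 adjusted p = 0.999). Atp1b1, a beta subunit of the sodium pump, averaged 70.2 ± 44.8 TPM and was highest in DMSO 5. Kcnj16, a basolateral potassium channel subunit, ran from 0 to 67.5 TPM, also highest in DMSO 5, and its partner Kcnj10 reached no more than 0.0554 TPM. With a single transcript per gene the means were 9.40 TPM for Creb1, 34.2 TPM for Tsc22d3, 43.8 TPM for Furin and 3.11 TPM for Kcnj16.

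The nearest relatives showed which family members these cultures did hold. Of 24 relatives 23 had a count, 0 were called by DESeq2 or edgeR, against 0.147% and 0.0% of all genes, and 0 were at an unadjusted p under 0.05, against 4.67%. Among pump regulators, Fxyd5 (dysadherin) averaged 235 ± 64.0 TPM and Fxyd3 90.8 ± 83.4 TPM (SD, n = 8), both above Fxyd4. With a single transcript per gene Fxyd5 averaged 54.3 and Fxyd4 32.7 TPM. Among receptors for related hormones, Oxtr, the oxytocin receptor, averaged 53.7 ± 22.2 TPM and was between 26.9 and 88.7 TPM in every library, Avpr1a averaged 6.32 ± 3.68 TPM, and Avpr1b was listed at 0 throughout. Among aquaporins the intracellular channel Aqp11 was highest at 3.03 ± 2.28 TPM, and Aqp1 of the proximal tubule averaged 0.430 ± 0.466 TPM. Hsd11b1, which regenerates glucocorticoids, averaged 2.41 ± 2.58 TPM with its transcripts summed and 1.20 TPM with a single transcript, beside 1.79 ± 1.87 TPM of Hsd11b2, so their order depended on the isoform counting.

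Genes whose pattern was most like a member could be searched by the fixed rule for Fxyd4 alone, since it was the only member with at least 10 counts in every library. Over 11430 genes and 8 libraries, Lpcat3, an enzyme that remodels membrane phospholipids, had r = 0.982 and Arrdc1, an arrestin-related adaptor, had r = 0.979 with Fxyd4 on log2(normalised count + 1). Lpcat3 itself ran only from 4906 to 8017 normalised counts, against 116 to 6262 for Fxyd4. When genes at 0 in some libraries were admitted, a choice made after seeing the data, Wnt9b and Pkib had r = 0.999 and r = 0.997 with Scnn1b over 14050 genes. Kcnj1 was nearest to Slco4c1 and Cdhr5, with r = 0.997 and r = 0.996, and Avpr2 to Dcx (r = 0.977) and Fam81a (r = 0.973). Hsd11b2 was nearest to Wdr34 (r = 0.999), Scnn1a to Bckdha (r = 0.985) and Scnn1g to Rbbp8nl (r = 0.973). Wnt9b, Pkib, Slco4c1, Cdhr5, Dcx and Rbbp8nl each had a library at 0. These members also had libraries at 0, such as DMSO 20 and DOX 19 for Scnn1b. Libraries at 0 lie far from the rest on this scale and weigh heavily in r, so these values do not show that the levels vary together elsewhere. All these values are the highest of a search and describe these 8 libraries only.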

How the data were processed

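RNA-seq libraries of mouse tubuloids (4 DOX, 4 DMSO) were grouped by the treatment in their labels. Per the study's methods and labels, the authors made poly-A selected SMART-Seq v4 libraries and aligned the paired reads to mm10 (GRCm38), with STAR, featureCounts and DESeq2 named and no versions given in the sources used here. In the deposited tables a count is the raw number of reads on 1 RefSeq transcript. The deposited FPKM scales that count by length and library total, and was not used for any result. The deposited TPM is FPKM brought by the authors to a fixed sum of 1000000 per library, and it was used for levels.

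Counts and TPM were summed by symbol into 24063 genes. Reads were counted for every isoform: totals per library were 63922677 to 102716313 when summed, and 39252852 to 64561676 with the most counted transcript of each gene alone. DOX was compared with DMSO over all genes with DESeq2 1.42.0 (R 4.3.3, Wald test, median-of-ratios size factors, no covariate, independent filtering at alpha 0.1, Benjamini-Hochberg), with edgeR 4.0.16 quasi-likelihood beside it. The study's methods name DESeq2 and its adjustment at that alpha, and the other settings were chosen here. Calls needed an adjusted p not above 0.05 together with a 1.5-fold change or more. Single genes were also compared by exact two-sided permutation over 70 assignments on log2(normalised count + 1). Levels, the ratios of ENaC subunits (log2 TPM ratios) and 3 correlations were computed as described, and pairs with Aqp2 were not computed because it was at 0 in 7 libraries. Positions and promoter windows are from RefSeq on GRCm38.p6, and no protein sequence was used here. The named genes were the 10 members, Pkd2, called genes of the lists, up to 8 with the smallest unadjusted p and 5 with the highest mean TPM of each pathway or family list, and the 2 genes most like each member with at least 10 counts in every library and a mean of at least 50. Nr3c2, Nr3c1, Nedd4l, Prkacb, Prkaca, Aqp11, Avpr1b and Arhgap4 lie outside this rule and were added after their values were seen. The same holds for the cell type markers and the genes most like Scnn1b, Kcnj1, Avpr2, Hsd11b2, Scnn1a and Scnn1g. With all pathway genes taken as 1 list, Adcy6, Atp1b1, Furin, Kcnj10, Kcnj16, Prkar1a, Prss8 and Tsc22d3 would lie outside it too. Members and lists were chosen with earlier results of these data known. The tests were tested on simulated data. Limits given for a count of 0 cover counting error only, and 95% intervals of fold changes come from the DESeq2 SE, which includes the spread between libraries. Alternatives were edgeR, 2 low count filters, TMM size factors, limma-voom (limma 3.58.1), no Cook's distance filter, a single transcript per gene, sex of the library as a covariate, no DMSO 20 and DOX 19, and each library left out in turn.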

Additional observations from a re-analysis of the deposited data

Results flagged for a closer look

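Of 19 groups of 4 libraries, each taken for 1 gene on log2(normalised count + 1), 3 held a library far from the others. Chance gives about 1 in 20 groups, a rate that does not apply to Aqp2, where the other 3 libraries were all at 0 and any count stands apart. Aqp3 was at 0 in DOX 19 and between 6.02 and 6.26 in the other 3 DOX libraries. Hsd11b2 was at 0 in DOX 19 and between 6.32 and 7.11 in the other 3. Aqp2 was at 1.43 in DOX 9, from 2 counts, and at 0 in the others.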

How the results depend on the processing

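No paired analysis was possible because the library numbers in the titles are not shared between the groups. The members called (0) and the pathway genes called (0) stayed at 0 under all 17 alternatives. The count over all genes, 25, was 0 with edgeR, 0 with limma-voom, 16 with at least 10 counts in every library, 48 without the Cook's distance filter, 43 with sex as a covariate, 51 without DMSO 20 and DOX 19, and 14 to 75 with 1 library left out (14 without DMSO 3 and 75 without DMSO 15). The cause of these shifts was not tested. Signs that turned belonged to differences that had not passed a test.

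With 1 library left out, the log2 fold change ranged from -0.26 to 1.16 for Aqp3, -2.24 to 0.50 for Aqp4, -2.94 to -0.64 for Avpr2, 0.21 to 2.19 for Scnn1a, -3.14 to 0.049 for Scnn1b, -4.25 to -0.11 for Scnn1g, -2.12 to -0.29 for Fxyd4, -2.84 to 0.72 for Kcnj1 and -1.42 to -0.28 for Hsd11b2. Without DMSO 5 the members were 5 lower and 4 higher, in place of 7 and 2. The mean log2 difference ranged from -1.11 to 1.85 for Aqp3, -1.74 to 0.71 for Aqp4, 0.039 to 3.80 for Avpr2, 0.61 to 3.42 for Scnn1a, -3.67 to -0.17 for Scnn1g, -3.17 to 1.83 for Scnn1b, -1.33 to 0.59 for Fxyd4, -0.97 to 2.59 for Kcnj1 and -2.46 to 1.15 for Hsd11b2. The log2 fold change of Avpr2 was 2.28 with limma-voom and that of Kcnj1 0.99 with limma-voom and 0.083 with sex as a covariate. That of Scnn1a was -0.038 without DMSO 20 and DOX 19, and Fxyd4 relative to epithelial genes, an alternative chosen after seeing the data, differed by 0.11. The DOX minus DMSO difference of the log2 ratio of Scnn1b to Scnn1a ranged from -2.55 to 0.42 with 1 library left out, that of Scnn1g to Scnn1a from -4.70 to -0.80 and that of Scnn1b to Scnn1g from 0.70 to 2.16.

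Over all 8 libraries r was 0.464 for Scnn1a and Scnn1b and 0.354 for Scnn1a and Scnn1g. It was -0.26 to 0.836 and -0.33 to 0.614 with 1 library left out, -0.50 and -0.52 without DMSO 15 and DMSO 20, and -0.085 for Scnn1a and Scnn1g without DMSO 20 and DOX 19. For Scnn1b and Scnn1g it was 0.942, and 0.923 to 0.992 with 1 library left out. The narrowest 95% interval of a member, that of Fxyd4, spanned -3.73 to 0.29.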
